A study of Mus musculus with 2 samples.

Results

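Potassium channels set the resting potential of a neuron, shape its action potentials and limit how often it fires. The data were read for 30 genes that encode potassium channel pores or their auxiliary subunits, taken as a list of gene names, out of 55450 genes counted in nuclei of the mouse ventrolateral periaqueductal gray (vlPAG), a midbrain column whose GABAergic neurons take part in the control of feeding. The study compared wild-type (WT) C57/BL6J mice given a normal food diet (NFD) with mice given a high-fat diet (HFD), in both cases for 7 weeks from 8 weeks of age. Each diet is 1 single-nucleus library made from the pooled tissue of 18 mice, so diet, library and pool of mice cannot be told apart. No spread between mice was measured, and no p-value is given.

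Voltage-gated subunits of the Kv1, Kv2 and Kv3 families repolarize the action potential, while Kv4 subunits with their KChIP partners carry the A-type current that delays firing. Kv7 subunits carry the M current, which opens near the resting potential, and subunits of the EAG, ERG and ELK groups (the Kcnh genes) also open at moderate depolarization. Inward rectifiers couple to G proteins in neurons and buffer potassium in glia, tandem-pore channels provide leak, and calcium- and sodium-activated channels follow the activity of the cell itself.

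After nuclei with more than 500 unique molecular identifiers (UMIs, 1 for each captured RNA molecule) and under 20% mitochondrial UMIs were kept, the NFD library held 7500 nuclei with a median of 4504.5 UMIs and the HFD library 6322 nuclei with a median of 7347.5. The kept nuclei of both libraries had 12 barcodes in common. Clusters were named from marker genes, with every potassium channel gene left out of the clustering. Of the NFD nuclei 2990 were GABAergic and 1490 glutamatergic, and of the HFD nuclei 2265 and 1225. A cluster with markers of cerebellar granule neurons, which belong to another brain region, held 10 NFD and 766 HFD nuclei. It was left out of the comparisons between cell groups, and its values stand beside the results they touch. A level is the UMIs of a gene summed over the nuclei of a group, divided by all UMIs of that group and given as CPM, and all intervals are 95% intervals that cover counting error only. Levels were compared for one gene between groups of nuclei, not between genes, because long genes collect more nuclear reads.

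Markers of GABAergic neurons summed to 417 CPM (NFD) and 425 CPM (HFD) in GABAergic nuclei and to 29.9 and 24.4 CPM in glutamatergic nuclei. Markers of glutamatergic neurons summed to 157 CPM in glutamatergic nuclei of each library, and to 48.2 and 44.5 CPM in GABAergic nuclei. The classes were not equally clean, since 1 GABAergic cluster (505 NFD and 500 HFD nuclei) held the GABAergic markers at 239 CPM and the glutamatergic ones at 116 CPM. Clusters with mixed or missing markers stayed unnamed, 1349 NFD and 939 HFD nuclei in all. Of these, clusters of 299 NFD and 87 HFD nuclei and of 44 and 112 nuclei fell to a limit on neuronal markers in glia. That limit was set after the clusters were seen. Shallow clusters with no marker of their class among their leading genes were not named either. A cluster of 86 and 144 nuclei (median 801.5 and 1053.5 UMIs) had no listed marker there, and stayed unnamed with or without the limit.

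Members of every family were present in the neurons of the vlPAG. In GABAergic nuclei Kcnb2, a Kv2 subunit, was at 1046 CPM in the NFD library and 1036 CPM in the HFD library. Kcnma1, the pore of the large-conductance BK channel, was at 739.7 and 759.7 CPM. Kcnj9, a G-protein-coupled inward rectifier with 197 and 213 UMIs, was at 10.8 and 8.84 CPM, so its values carry wide intervals.

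**Figure D1:**
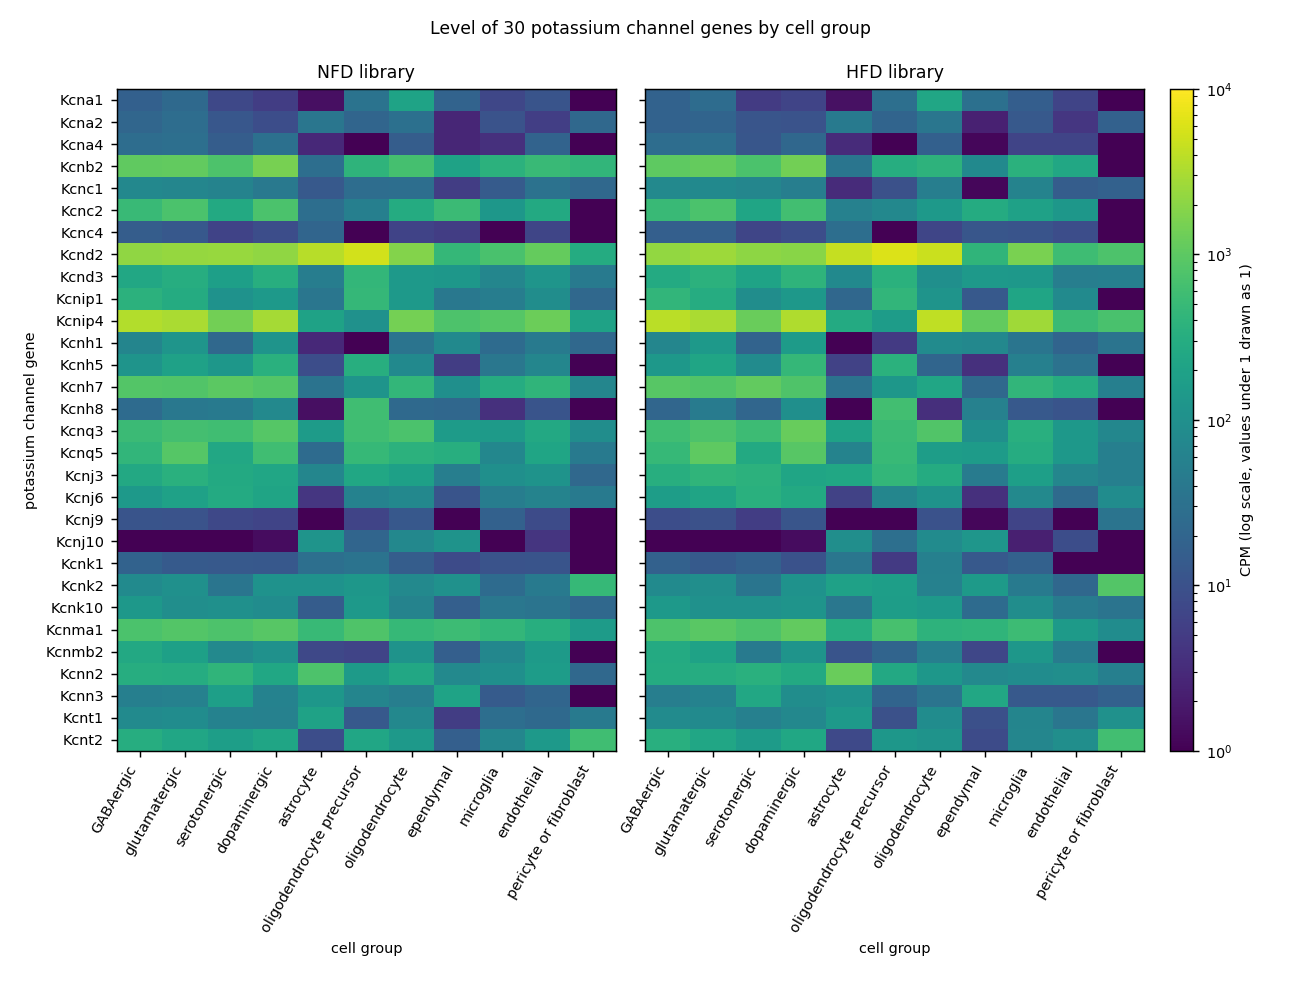
Each square is the level of a gene (rows) in a cell group (columns) in CPM on a logarithmic colour scale, with the NFD library on the left and the HFD library on the right. Most members were spread over all 4 neuronal groups in both libraries. Members brightest outside these groups in both libraries included Kcna1, Kcnh8, Kcnj10 and Kcnk2. They also included Kcnd2, Kcnip1, Kcnk10, Kcnn2, Kcnn3, Kcnt1 and Kcnt2, some of them by a small margin.

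Few of these genes differed beyond 1.5-fold between GABAergic and glutamatergic nuclei. A member was placed on one side when the interval of the ratio between the classes lay wholly beyond 1.5-fold in both libraries. By this rule 3 of the 30 members were higher in glutamatergic nuclei, 0 were higher in GABAergic nuclei and 27 were on neither side. Over all 14481 genes measured, 1.65% were on the glutamatergic side and 1.33% on the GABAergic side.

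Kcnq5, a Kv7 subunit of the M current, was at 427 CPM in GABAergic and 883 CPM in glutamatergic nuclei of the NFD library, and at 478 and 1005 CPM in the HFD library, which are log2 ratios of GABAergic to glutamatergic of -1.05 (interval -1.09 to -1.01) and -1.07 (-1.11 to -1.04). Kcnh1, an EAG channel, was at 66.8 against 123 CPM and at 67.6 against 142 CPM. Kcnh5, the other EAG channel, was at 118 against 198 CPM and at 138 against 224 CPM. Kcnq5 kept its side under every other clustering and filter to which this rule was applied. Kcnh1 and Kcnh5 lost theirs when 30 principal components were used. Kcnh5 also lost its side with thinning, with the highest doublet scores removed, with all variable genes and with only potassium channel genes left out of them. Thinning drew each nucleus down to 2000 UMIs and left out nuclei with fewer. Kcnh8 was on the glutamatergic side with thinning, a mitochondrial limit of 5%, all variable genes and only potassium channel genes left out. Kcnc2 was on that side with the 5% limit and with 3000 variable genes. The rule was not applied with the mixed GABAergic cluster left out of its class.

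Several members were milder in the other direction. Kcnmb2, an auxiliary beta subunit of the BK channel, was at 262 CPM in GABAergic and 188 CPM in glutamatergic nuclei of the NFD library, and at 277 and 199 CPM in the HFD library. The log2 ratio was 0.48 in each library. Kcnk10, a TREK leak channel, stood at 0.50 and 0.51, Kcnip1, a KChIP, at 0.35 and 0.51, and Kcnt2, a sodium-activated channel, at 0.41 and 0.51. None of these intervals lay wholly beyond 1.5-fold. The ratios were not taken again with the mixed GABAergic cluster left out. Kcnip1 was highest in a subcluster with little Slc32a1, described below. BK pore levels (Kcnma1) leaned the opposite way from those of the beta subunit, at -0.21 and -0.30.

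The monoaminergic groups were smaller, with 256 NFD and 169 HFD serotonergic nuclei and 244 and 128 dopaminergic nuclei. Serotonergic markers summed to 4111 and 4791 CPM in serotonergic nuclei and to 504 and 500 CPM in dopaminergic nuclei. Dopaminergic markers summed to 730 CPM in dopaminergic nuclei of each library, but to 1758 and 2033 CPM in serotonergic nuclei. The marker lists share Slc18a2 and Ddc. Th and Ret were among the leading genes of the dopaminergic cluster. In serotonergic nuclei Kcnj6, a G-protein-coupled inward rectifier, reached its highest level of the groups compared, at 277 CPM in the NFD library and 346 CPM in the HFD library. The granule neuron cluster, which was not among them, held it at 360.2 CPM (4 UMIs) and 254 CPM. Kcnn3, a small-conductance SK channel that follows calcium entry, was at 183 and 252 CPM there and at 52.7 and 50.5 CPM in GABAergic nuclei. Kcnb2 was highest in dopaminergic nuclei, at 1532 and 1428 CPM, and so was Kcnh5, at 349.6 and 467 CPM. Kcnip4 and Kcnip1 were lowest among the 4 neuronal groups in serotonergic nuclei in both libraries, Kcnip4 at 1384 and 1199 CPM and Kcnip1 at 110.5 and 90.3 CPM.

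Glial and vascular groups also carried members, in part above the level of neuronal genes in the same nuclei. For scale, each level was taken as a percent of the level in GABAergic plus glutamatergic nuclei, and the same was done for 7 genes of neurons (Rbfox3, Snap25, Syt1, Stmn2, Gad1, Gad2 and Slc17a6). A gene was counted where it had at least 20 UMIs and its interval lay above the highest of the 7 in both libraries. In astrocytes this held for 12 of the 14 members with 20 UMIs in both libraries, beside 97.7% of all 4393 such genes. In ependymal nuclei it held for 7 of 13 members (91.8% of all such genes), in oligodendrocytes for 3 of 18 (23.2%) and in their precursors for 2 of 14 (19.3%). In microglia it held for 0 of 11 members (70.6%), in endothelial nuclei for 0 of 15 (75.9%), and in the pericyte or fibroblast group for 2 of 2 (80.3%). The rule therefore passes most genes of most of these groups, and the counts say only which members exceeded the neuronal genes.

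In astrocytes the 7 neuronal genes were at 4.42 to 11.1% of their neuronal level in the NFD library and at 4.66 to 10.6% in the HFD library. Kcnj10, the inward rectifier through which astrocytes take up potassium, was at 117 CPM in the NFD library and 93.8 CPM in the HFD library, against 0.491 and 0.954 CPM in GABAergic nuclei. Kcnn2, an SK channel, was at 242 and 414% of its neuronal level. Kcnt1, a sodium-activated channel, was at 239 and 168%, and Kcnd2, an A-type pore, at 168 and 189%. Kcnip4, a KChIP partner of that pore, was at 6.08 and 7.93%, within the range of the neuronal genes.

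**Figure D2:**
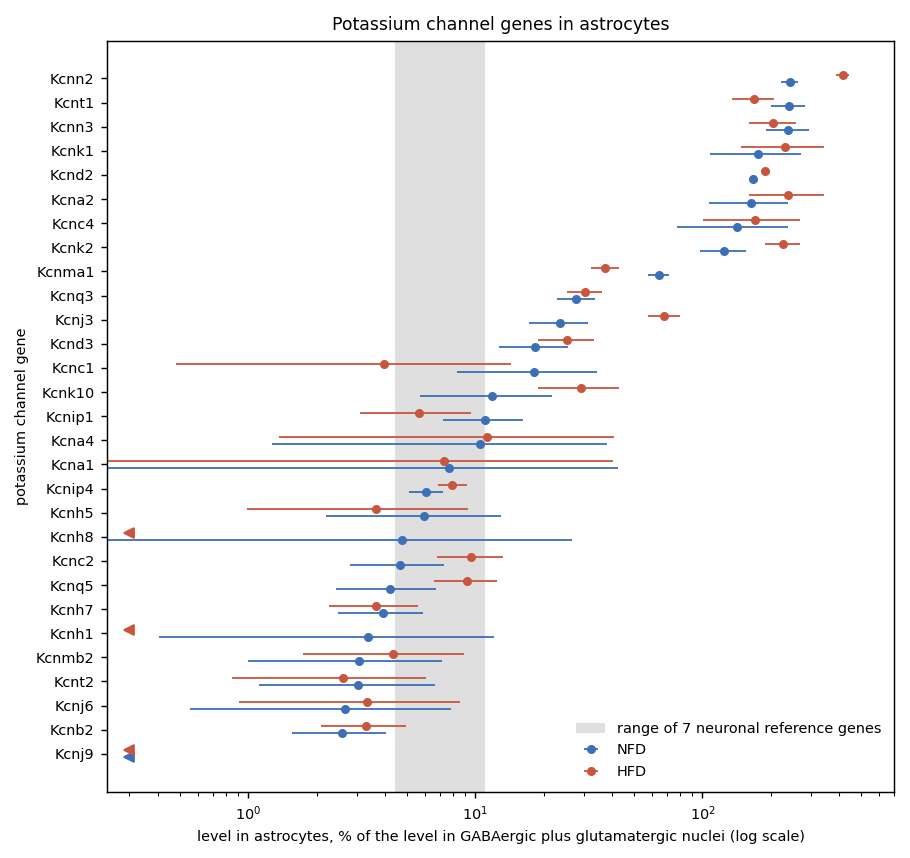
Points give the level of each gene in astrocytes as a percent of its level in GABAergic plus glutamatergic nuclei, on a logarithmic axis, with 95% counting intervals, and triangles mark genes with 0 UMIs. The grey band spans 7 neuronal genes over both libraries, and Kcnn2, Kcnt1, Kcnn3, Kcnd2, Kcnk2, Kcna2, Kcnk1 and Kcnc4 lay above 100% in both libraries. Kcnc4, at 20.3 and 27.7 CPM in astrocytes, did not reach the minimum of 20 UMIs used for the count of members. Kcnj10, which has almost no neuronal level, is not drawn.

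In oligodendrocyte precursors Kcnh8, the ELK channel, was at 588 CPM in the NFD library and 611 CPM in the HFD library, which was 7.70 and 6.15 times the next group, dopaminergic neurons. Kcnd2 was also highest in precursors among the named groups compared, at 5280 and 6229 CPM. Of the 7 neuronal genes, Gad1 was itself at 85.9 and 116 CPM in precursors, 155 and 200% of its neuronal level, from 13 and 24 UMIs. In mature oligodendrocytes Kcna1, a Kv1 subunit of the axon, was at 209 and 232 CPM, 6.31 and 7.82 times the next group, from 98 and 68 UMIs. The granule neuron cluster, outside this ranking, held Kcna1 at 147 CPM (215 UMIs) in the HFD library, and granule neuron markers summed to 66.0 and 535 CPM in oligodendrocytes. Kcnj10 was at 72.4 and 85.1 CPM there and at 113 and 124 CPM in ependymal nuclei.

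Kcnk2, a TREK leak channel, was at 472 CPM (21 UMIs) and 862 CPM (49 UMIs) in the pericyte or fibroblast group, 3.57 and 4.42 times the next group, and Kcnt2 was at 584 and 616 CPM, both from 32 NFD and 35 HFD nuclei only. Markers of pericytes or fibroblasts summed to 3910 and 3062 CPM in that group, and also to 3148 and 3909 CPM in the endothelial group. Ependymal nuclei held Kcnn3 at 207 and 254 CPM.

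The promoter windows of Kcnj10 and Kcnh8 are shown because these genes were low in neurons and high in a glial group in both libraries. Both are RefSeq windows on GRCm38, plus strand, from 250 bases before to 50 bases after the start of the gene, on chr1:172340960-172341259 for Kcnj10 and chr17:52602459-52602758 for Kcnh8. Capitals mark ACAAAG or ACAATG, a core read by SOX factors, on either strand. The motif occurred 1 time in the Kcnj10 window and 0 times in the Kcnh8 window, and in 28.6% of all 32851 promoter windows of this length, so a match is a description of the letters and not of a bound site. Of the 30 genes 25 were matched to RefSeq windows.
Kcnj10: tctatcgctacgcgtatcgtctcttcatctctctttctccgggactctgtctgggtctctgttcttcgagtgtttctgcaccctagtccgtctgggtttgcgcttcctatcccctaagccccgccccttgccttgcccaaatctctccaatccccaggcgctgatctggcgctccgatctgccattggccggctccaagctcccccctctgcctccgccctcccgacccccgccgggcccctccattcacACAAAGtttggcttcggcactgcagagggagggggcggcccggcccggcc
Kcnh8: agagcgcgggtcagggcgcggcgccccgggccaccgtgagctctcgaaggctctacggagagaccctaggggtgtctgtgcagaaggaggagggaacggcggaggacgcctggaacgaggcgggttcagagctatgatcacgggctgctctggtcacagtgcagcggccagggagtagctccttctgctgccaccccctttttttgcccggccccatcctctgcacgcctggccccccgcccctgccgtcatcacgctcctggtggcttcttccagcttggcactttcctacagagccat

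The main comparison asked whether any of these genes differed between the HFD and the NFD library in GABAergic neurons. A gene with at least 100 UMIs over both libraries was called when the interval of its HFD to NFD ratio lay wholly beyond 0.32 on the log2 scale in either direction. In GABAergic nuclei 29 of the 30 members had enough UMIs, 0 were called higher and 0 were called lower. Over all 13281 genes measured there, 0.64% were called higher and 1.45% lower. Without the counting interval, 0 members had a log2 ratio beyond 0.32 in either direction, against 4.28% of all genes higher and 11.6% lower. Kcnj10, with 9 and 23 UMIs, was the member not measured.

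Of the 29 members 19 had a log2 ratio above 0 and 10 below 0, with a median of 0.06 beside -0.02 for all genes. Gene length moved with the ratio. Among the genes over 200 kb, the class that holds 16 of the members, the median was 0.04 for all 1036 genes and 0.09 for the members, and its part in the result was not tested.

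The member with the highest ratio was Kcnj3, the subunit of G-protein-coupled inward rectifiers that pairs with Kcnj6 and Kcnj9. It was at 262 CPM (4791 UMIs) in the NFD library and 321 CPM (7734 UMIs) in the HFD library, a log2 ratio of 0.29 (interval 0.24 to 0.35). Kcnj6 was at 144 and 166 CPM, a log2 ratio of 0.20 (0.13 to 0.27). The rarer Kcnj9 was at 10.8 and 8.84 CPM, a log2 ratio of -0.28 (-0.57 to 0.003), an interval that holds 0. Kcnj3, Kcnj6, Kcnd3 and Kcnb2 are listed by the study among genes it chose on these same samples, so their direction here is not independent evidence.

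In the A-type group Kcnd3 was at 249 and 284 CPM (log2 ratio 0.19, interval 0.13 to 0.24), Kcnd2 at 2156 and 2237 CPM (0.05, 0.03 to 0.07), Kcnip1 at 370.3 and 426 CPM (0.20, 0.16 to 0.25) and Kcnip4 at 3513 and 3843 CPM (0.13, 0.12 to 0.14). All 4 intervals were above 0 and within 0.32. Kv7 subunits were similar, Kcnq3 at 0.15 (0.11 to 0.19) and Kcnq5 at 0.16 (0.12 to 0.21). Over the other settings Kcnq5 ran from 0.03 to 0.23 and Kcnip4 from 0.08 to 0.21. The main ratios pool GABAergic subclusters whose shares differed between the libraries, as given below. These settings included the same subcluster weights in both libraries. On the other side of 0, Kcnn2 was at 314 and 291 CPM, a log2 ratio of -0.11 (-0.16 to -0.06), Kcna2 at -0.23 (-0.43 to -0.03) and Kcnh8 at -0.30 (-0.49 to -0.11), the last 2 from 388 to 496 UMIs a library.

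**Figure D3:**
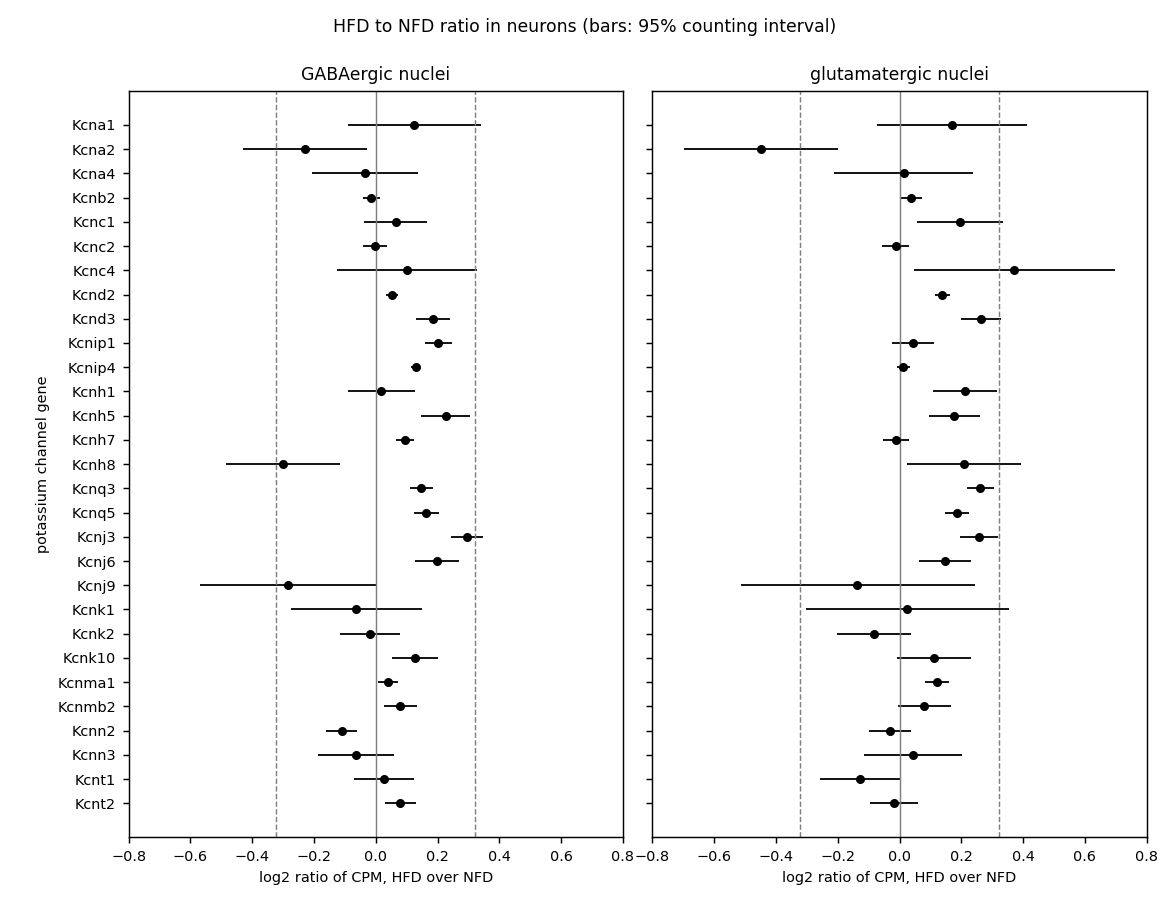
Points give the log2 ratio of CPM in the HFD library to CPM in the NFD library for 29 members in GABAergic (left) and glutamatergic (right) nuclei, with 95% counting intervals. Dashed lines mark 0.32 on either side of 0, and 0 of 29 intervals lie wholly beyond them in either panel.

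Glutamatergic nuclei gave a similar picture from the same 2 libraries. Again 29 members were measured, 0 were called higher (0.589% of all 11706 genes) and 0 lower (1.85%). The median log2 ratio was 0.08 beside -0.05 for all genes, and 21 members were above 0. Kcnj3 was at 342 and 408 CPM, a log2 ratio of 0.26 (0.19 to 0.32), and Kcnd3 at 307 and 369 CPM, also 0.26 (0.20 to 0.33). Without the interval 1 member was beyond 0.32 upward (4.92% of all genes) and 1 downward (14.2%). They were Kcnc4, a Kv3 subunit, at 12.5 and 16.2 CPM, and Kcna2, a Kv1 subunit, at 26.8 and 19.6 CPM, a log2 ratio of -0.45 (-0.70 to -0.20). With nuclei of at least 2000 UMIs thinned to that number and the others left out, 1 member, Kcna2 (-0.89, -1.44 to -0.36), was called lower.

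Kcnd3 and Kcnj6 were above 0 in each of 12 neuronal clusters, 10 of them named and 2 unnamed. Kcnj3 was above 0 in 11 of the 12, the exception being the dopaminergic cluster at -0.09 (-0.31 to 0.13). These clusters come from the same 2 libraries, so the count describes this pair of libraries. Kcnip1, Kcnmb2 and Kcnn2 were split, with 6 clusters on each side of 0.

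The wider potassium channel family gave no call either. Of 68 further genes for channel subunits and their partners, 32 had enough UMIs in GABAergic nuclei and 27 in glutamatergic nuclei. In either class 0 of them were called. Over all genes 0.64% were called higher and 1.45% lower in GABAergic nuclei, and 0.589% and 1.85% in glutamatergic nuclei. At such shares a count of 0 among so few genes says little. By the ratio alone, 2 of the 32 were beyond the call limit upward and 2 downward in GABAergic nuclei (4.28% and 11.6% of all genes). In glutamatergic nuclei 5 of the 27 were beyond it upward and 1 downward (4.92% and 14.2%). The median log2 ratios of these further genes were 0.08 and 0.11.

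GABAergic neurons with a UMI of Slc32a1, Gad1 or Gad2 were divided further, into 9 subclusters, of which the 8 with at least 50 nuclei in each library are described by number and by their leading genes. The Pearson correlation of log2 levels between the libraries over the 8 ran from -0.41 to 0.99 and was at least 0.8 for 22 of the 30 members, given as a description. It was 0.93 for Kcnip4, 0.97 for Kcnip1 and 0.98 for Kcnq5, and it was lowest in members with few UMIs, such as Kcnj10 (-0.41) and Kcna2 (-0.37). The shares of the subclusters differed between the libraries. Subcluster 0, led by Meis2 and Tfap2b, held 41.2% of the divided NFD nuclei and 26.8% of the HFD ones. Subcluster 4 held 5.97 and 9.13%.

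Kcnip4 was highest in subcluster 6, led by Reln and St18 (98 NFD and 97 HFD nuclei), at 9349 CPM in the NFD library and 11950.1 CPM in the HFD library. It was lowest in subcluster 7, led by Cdh23 and Sntg2, at 1236 and 1549 CPM, a range of 7.57 and 7.71 times. Subcluster 7 was the highest and subcluster 6 the lowest for Kcnc2, a Kv3 subunit, at 710.5 and 878 CPM against 212 and 187 CPM in subcluster 6. Kcnh1 followed Kcnip4 in these 2 subclusters, at 188 and 211 CPM in subcluster 6 and 19.1 and 16.3 CPM in subcluster 7.

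Kcnq5 was highest in subcluster 4, led by Nr4a2 and Satb1, at 979.8 and 1059 CPM, where Kcnip1 was lowest, at 73.7 and 75.2 CPM. Kcnmb2 was highest in subcluster 1, led by Six3 and Col23a1, at 514 and 518 CPM, and lowest in subcluster 3, led by Foxp2 and Cobll1, at 72.0 and 107 CPM. Kcnh5 was highest in subcluster 3, at 200 and 278 CPM. Each of these subclusters held Slc32a1 at 44.6 CPM or more.

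Subcluster 5, led by Rnf220 and Cacna2d1, was the highest for Kcnip1 (807 and 926 CPM), Kcnh7 (2048 and 2103 CPM) and Kcnd3 (356 and 454 CPM). Its transmitter genes did not match the class, with Slc32a1 at 3.31 CPM, Gad1 at 10.5 CPM and Slc17a6, a glutamate transporter gene, at 141 CPM, so its levels are given by number. With the mixed cluster described above left out of the GABAergic class by a stricter threshold (2485 NFD and 1765 HFD nuclei left), 0 members were called in either direction and the median log2 ratio was 0.06.

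**Figure D4:**
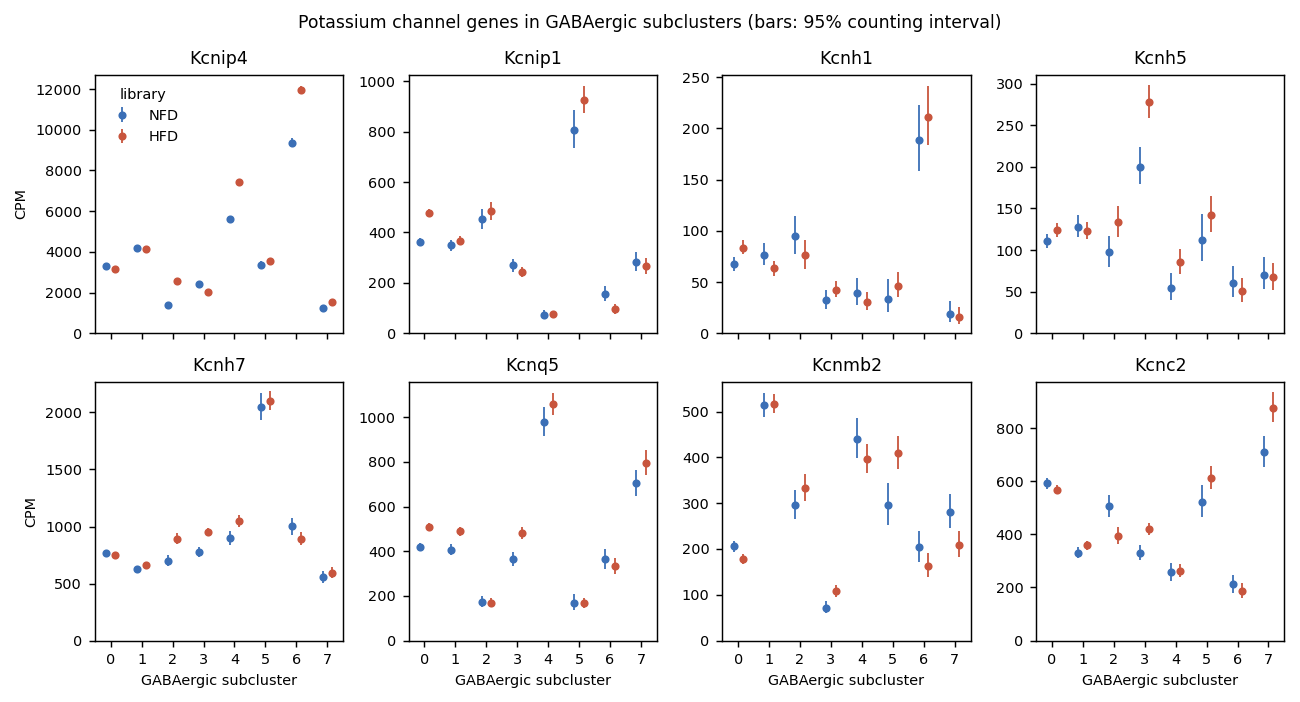
Levels of 8 members in CPM in the 8 larger subclusters, with 95% counting intervals, blue for the NFD library and red for the HFD library. The highest subcluster of each gene was the same in both libraries, such as subcluster 6 for Kcnip4.

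Within single neuronal clusters and subclusters some members were called. Over the 12 neuronal clusters taken one by one, 4 of 301 measured values of members were called higher (0.64% of those of all genes) and 3 lower (1.06%). Kcnip4 was called higher in the mixed GABAergic cluster, at 2091 and 2699 CPM (0.37, 0.32 to 0.41), and in the smallest glutamatergic cluster, at 1865 and 2811 CPM (0.59, 0.52 to 0.66). Kcnh5 was called higher in that glutamatergic cluster, at 43.9 and 76.3 CPM (0.80, 0.33 to 1.29), and the other 4 calls were in the serotonergic and dopaminergic clusters. Over the 8 subclusters 3 of 182 values were called higher (0.645%) and 1 lower (0.902%). In subcluster 2, led by Vmn1r209 and Npsr1 (213 NFD and 187 HFD nuclei), Kcnip4 was called higher in the HFD library, at 1369 CPM (1579 UMIs) and 2562 CPM (3943 UMIs), a log2 ratio of 0.90 (0.82 to 0.99). Kcnj3 was called higher there too, at 283 and 417 CPM, a log2 ratio of 0.56 (0.37 to 0.76). Kcnip4 was also called higher in subcluster 4, at 5619 and 7426 CPM (0.40, 0.35 to 0.45), and its log2 ratio was below 0 in subclusters 0, 1 and 3. Kcnh8 was called lower in subcluster 1 (-0.89, -1.36 to -0.41), from 80 and 74 UMIs.

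Serotonergic neurons had 3 of 23 measured members called lower in the HFD library, where 1.46% of all 6423 genes were, and 0 called higher, where 1.11% were. Kcnh8, the ELK channel, was at 43.4 CPM (90 UMIs) and 21.0 CPM (64 UMIs), a log2 ratio of -1.05 (-1.53 to -0.57). Kcnmb2, the BK beta subunit, was at 76.7 and 45.0 CPM (-0.77, -1.11 to -0.43), and Kcnh5, the EAG channel, at 133 and 85.7 CPM (-0.64, -0.89 to -0.39). The 10% of nuclei with the most UMIs of Kcnh8 held 78.9 and 96.9% of them. These shares were 67.3 and 82.5% for Kcnmb2 and 66.3 and 69.3% for Kcnh5. Median depth was 5720 UMIs in NFD and 16670 UMIs in HFD serotonergic nuclei, and each of the 3 calls was lost when nuclei were thinned to 2000 UMIs. The thinned log2 ratios were -0.48 for Kcnh8 (-1.66 to 0.62, 34 UMIs over both libraries), -1.13 for Kcnmb2 (-2.11 to -0.24, 60 UMIs) and -0.91 for Kcnh5 (-1.59 to -0.27, 107 UMIs), so the last 2 were no closer to 0 than before. Kcnj3 was above 0, at 273 and 365 CPM (0.42, 0.27 to 0.57), and so was Kcnj6 (0.32, 0.17 to 0.47), neither of them called.

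In dopaminergic neurons 1 of 23 measured members was called higher, where 0.662% of 4832 genes were, and 0 lower, where 0.807% were. This was Kcnq5, at 593 CPM (885 UMIs) and 905 CPM (1357 UMIs), a log2 ratio of 0.61 (0.49 to 0.73). Kcnq3, which joins it in Kv7 channels, was at 893 and 1159 CPM (0.38, 0.27 to 0.48), not called. The Kcnq5 call was lost at a mitochondrial limit of 5% (0.40, 0.25 to 0.55), with 3000 variable genes and with 30 components.

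In astrocytes, of 10 measured members, 3 were called higher in the HFD library, where 3.31% of 2323 genes were, and 1 lower, where 1.42% were. Kcnj3 was at 68.1 CPM (47 UMIs) and 239.9 CPM (156 UMIs), a log2 ratio of 1.82 (1.34 to 2.32). The 7 neuronal genes together were at 5.97 and 6.18% of their neuronal level in these nuclei, granule neuron markers summed to 43.5 and 55.4 CPM, and the 10% of HFD nuclei with the most Kcnj3 UMIs held 67.3% of them. Its log2 ratio ran from 1.53 to 2.48 over the other settings. It was lowest with nuclei thinned to 2000 UMIs (1.53, 0.78 to 2.35), where its 84 UMIs were under the minimum of 100 for a call. Thinning left out nuclei with fewer than 2000 UMIs, and the median depth of astrocytes was 1769.5 UMIs (NFD) and 2708 UMIs (HFD). Kcnn2 (752 and 1213 CPM, 0.69) and Kcnk2 (110.2 and 195 CPM, 0.83) were also called, but both calls were lost under most other clusterings and both ratios were at 0.05 with 3000 variable genes, when the astrocyte group held 388 NFD and 330 HFD nuclei in place of 348 and 219. The member called lower was Kcnma1, at 503 and 306 CPM (-0.72, -0.98 to -0.46), a call lost at the 5% mitochondrial limit and with 3000 variable genes.

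Kcnd2 and Kcnip4 were called higher in the HFD library in oligodendrocytes and microglia. In oligodendrocytes Kcnd2 was at 1831 and 4785 CPM (log2 ratio 1.39, 1.26 to 1.51) and Kcnip4 at 1458 and 4145 CPM (1.51, 1.37 to 1.64). The same 2 genes reached 17787 and 14232 CPM in the granule neuron cluster of the HFD library, and granule neuron markers summed to 66.0 CPM in NFD and 535 CPM in HFD oligodendrocytes. Among oligodendrocyte nuclei without a UMI of the granule markers Gabra6 or Fat2, 139 in the NFD and 57 in the HFD library, Kcnd2 was at a log2 ratio of -0.10 (-0.30 to 0.09), and Kcnip4 at 1.28 (1.12 to 1.44).

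**Figure D5:**
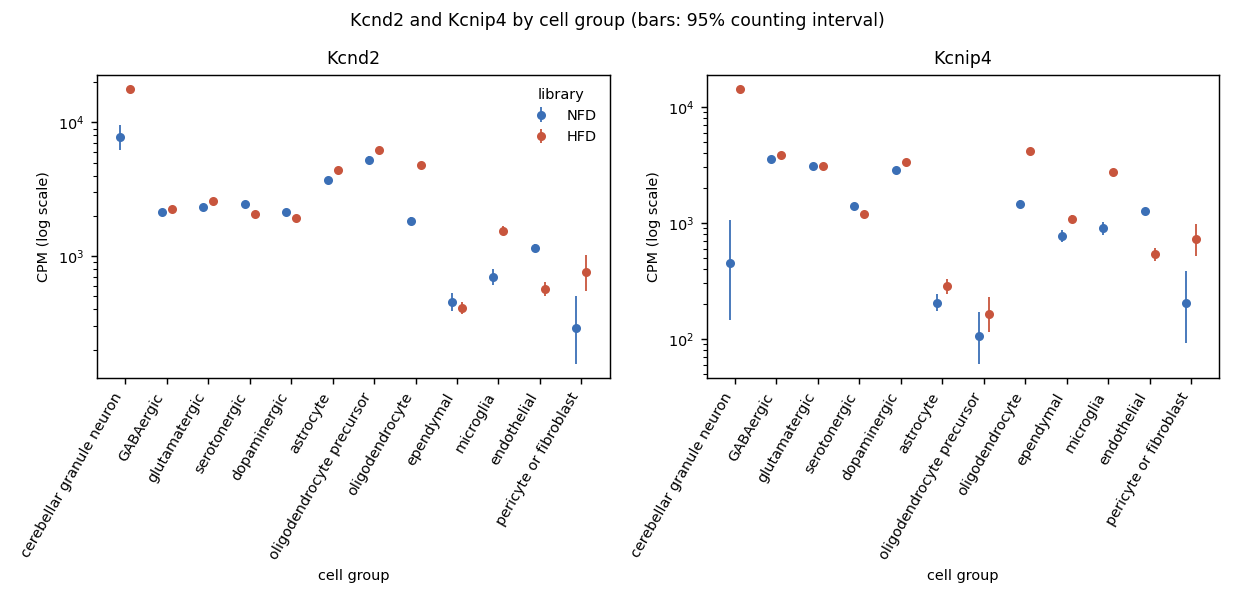
Levels of Kcnd2 (left) and Kcnip4 (right) in CPM on a logarithmic axis by cell group, with 95% counting intervals, blue for the NFD library and red for the HFD library. Both genes were highest in the granule neuron cluster of the HFD library, at 17787 and 14232 CPM, and the libraries lie furthest apart in oligodendrocytes, microglia and endothelial nuclei among the other groups with over 50 nuclei.

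Of 13 members measured in oligodendrocytes, 2 were called higher (6.86% of 1486 genes) and 5 lower (6.53%). The 5 were Kcnb2, Kcnc2, Kcnh7, Kcnq5 and Kcnn2, with log2 ratios from -0.78 to -1.12. Of the 7 neuronal genes, Gad1 (25.5 and 17.0 CPM), Gad2 (66.0 and 54.5 CPM) and Slc17a6 (36.2 and 20.4 CPM) were also lower in HFD oligodendrocytes. These 3 had 5 to 31 UMIs a library. Rbfox3, Snap25, Syt1 (739 and 1100 CPM) and Stmn2 were higher there. The part of neuronal RNA in the oligodendrocyte calls was not tested. In microglia 5 of 10 were called higher (11.1% of 1689 genes) and 0 lower (3.97%). They were Kcnd2 (1.15), Kcnip4 (1.61), Kcnip1 (2.15), Kcnq3 (1.12) and Kcnq5 (2.06). The 7 neuronal genes moved with these, from 24.7 to 50.9% of their neuronal level in microglia, and granule neuron markers went from 95.8 to 229.7 CPM. Kcnd2 was at 0.10 (-0.17 to 0.37) in microglia without a UMI of Gabra6 or Fat2. With thinning Kcnip4 was at 0.68 and Kcnq5 at 0.45, neither called, and Kcnq5 was called in 5 of 10 other settings. Median depth in microglia was 933.5 UMIs (NFD) and 1416.5 UMIs (HFD), so thinning to 2000 UMIs left out most of these nuclei.

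In endothelial nuclei, a group that also held pericyte or fibroblast markers, 0 of 14 members were called higher (8.28% of 2743 genes) and 9 lower (9.99%). The 9 had log2 ratios from -0.75 for Kcnq5 to -1.72 for Kcnmb2, while the neuronal genes went from 43.5 to 26.4%. In ependymal nuclei 3 of 11, Kcnb2 (-1.37), Kcnc2 (-0.85) and Kcnq5 (318 and 159 CPM), were called lower (3.47% of 2533 genes) and 0 higher (3.16%), and the neuronal genes went from 13.1 to 5.69%. The part of neuronal RNA in these results was not tested. In precursors 0 of 10 members were called, where 2.4% of 541 genes were called higher and 1.29% lower, and in the pericyte or fibroblast group no member had enough UMIs.

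Over all kept nuclei of a library, 2 of 30 members were called higher, where 1.72% of 16345 genes were, and 0 lower, where 3.15% were. Kcnd2 was at 2261 and 2933 CPM (0.38, 0.36 to 0.39) and Kcnj3 at 279 and 367 CPM (0.39, 0.36 to 0.43). Kcnj3 was at 998 CPM in the granule neuron cluster of the HFD library. The granule neuron nuclei were 0.133% of the kept NFD nuclei and 12.1% of the kept HFD nuclei, so these 2 values include a cluster that was nearly absent from the NFD library.

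All 30 genes are annotated on GRCm38 in the GENCODE set used here, and they run from 5.99 kb for Kcna1 to 1135 kb for Kcnip4. Some share ground with other genes. Kcnh1 overlaps Hhat (2097 UMIs) and Kcnh7 overlaps Gca (1961 UMIs) on the opposite strand, an antisense gene in Kcnn2 had 1808 UMIs and one in Kcnt2 1457. An antisense gene in Kcnip4 had 2792 UMIs beside 320231 of Kcnip4. On the same strand Kcnip1 overlaps a gene with 422 UMIs, and the 24 genes that Kcnip4 overlaps had 0 UMIs. The sources used here do not state how reads in such stretches were assigned, so the levels of these members are uncertain by that share.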

How the data were processed

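Nuclei of the mouse vlPAG were profiled by droplet single-nucleus RNA sequencing (10x V3), 1 library per diet. The authors deposited UMI counts per gene and nucleus, made with bcl2fastq 5.01 and Cell Ranger (4.0.0 in the file headers) on GRCm38. Seurat 3.1.1 is also named in the submitters' processing notes. The sources used here do not state if reads in introns entered the counts.

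Nuclei with over 500 UMIs and under 20% mitochondrial UMIs were kept, 41042988 UMIs in the NFD and 54587419 UMIs in the HFD library. They were clustered with Seurat 5.3.0 in R 4.3.3 (2000 variable genes without potassium channel genes or genes the study lists, 20 components, resolution 0.5), and GABAergic nuclei again at resolution 0.1. Scrublet (scanpy 1.11.5) called 1 and 0 nuclei and was not usable, so removal of the 6% with the highest scores was an alternative. Counts were summed per group and library in Python 3.11.15 (scipy 1.17.1, pandas 2.3.3), with exact Poisson intervals for levels and exact conditional binomial intervals for ratios, at 95%. With 1 library per diet there is no test. A gene with at least 100 UMIs over both libraries was called when its interval lay wholly beyond 0.32 on the log2 scale. The ratio script was first run on simulated counts with known changes.

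The members and gene lists were chosen with earlier results of these data known. All 30 members could be named, and given in full were those called in a group, those whose highest group was at least 3 times the next in both libraries and, per family, the one with the most UMIs. Values stated for a gene after its values were seen, such as those by subcluster, are descriptions.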

Additional observations from a re-analysis of the deposited data

Results flagged for a closer look

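Several members were called higher in the HFD library in one cell group and lower in another, and the difference between the groups was not tested. Kcnd2 had a log2 ratio of 1.39 in oligodendrocytes and -1.02 in endothelial nuclei, but each changed sign under another setting, to -0.10 in oligodendrocytes without a UMI of Gabra6 or Fat2 and to 0.21 in endothelial nuclei with 30 components. Kcnip4 was at 1.61 in microglia and -1.25 in endothelial nuclei, and Kcnq3 at 1.12 and -0.94 in the same groups. Kcnq5 was at 2.06 in microglia and -1.12 in oligodendrocytes, and Kcnn2 at 0.69 in astrocytes and -0.97 in oligodendrocytes. Over other settings Kcnq5 in microglia went down to 0.45 and was called in 5 of 10, and Kcnn2 in astrocytes went down to 0.05 and was called in 4 of 10. The neuronal genes went up in microglia, down in endothelial nuclei and in both directions in oligodendrocytes, and their part in these ratios was not tested.

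Kcnh7, an ERG channel, was at 1469 CPM (NFD) and 1593 CPM (HFD) in an unnamed cluster of 188 and 204 nuclei that belonged to no named group. It entered only the counts over neuronal clusters and over all nuclei. In serotonergic nuclei it was at 997 and 1097 CPM.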

How the results depend on the processing

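Of 88 values of the summary counts and medians under other settings, 85 stayed within their limits and 3 moved. Thinned to 2000 UMIs, 1 member was called lower in glutamatergic nuclei, against 0. Members higher in glutamatergic nuclei numbered 5 with a mitochondrial limit of 5% and 1 with 30 components, against 3. Of 271 values of single genes, 183 stayed, 86 moved and 2 changed sign. Kcnd2 went to -0.10 in oligodendrocytes without a UMI of Gabra6 or Fat2, and to 0.21 in endothelial nuclei with 30 components, and the cause was not tested. The setting without Gabra6 or Fat2 nuclei and the one leaving only potassium channel genes out of the variable genes were chosen after seeing the data. Some of the values counted as stayed could not move. A minimum of 20 UMIs per gene leaves each single-gene ratio as it is. The 3-fold transmitter threshold left the glutamatergic group unchanged, at 1490 NFD and 1225 HFD nuclei. Such values say nothing about the effect of processing. Kcnj3 stayed at 0.24 to 0.32 in GABAergic and 0.21 to 0.30 in glutamatergic nuclei. Scaling by the median ratio subtracted -0.02 and -0.05 from the log2 ratios of these classes, and so raised them. No paired analysis was possible because each diet has 1 library. Members with few UMIs, such as Kcnj9, are limited by depth.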
